A study of Mus musculus with 6 samples.

Results

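The genes described here encode the respiratory chain and ATP synthase of mitochondria. They were chosen by symbol: entries of the expression table whose names begin with Nduf followed by a, b, c, s or v, with Uqcr, with Cox4 to Cox8 or with Atp5, together with *Sdha*, *Sdhb*, *Sdhc* and *Sdhd*. One pseudogene name was left out, and 92 genes remained of 37753 entries with values. By the enzyme they belong to, 36 are subunits of complex I, 7 are Ndufaf assembly factors of complex I, 4 are subunits of complex II, 8 of complex III, 19 were placed with complex IV and 18 with complex V. *Ndufa4* and its relative *Ndufa4l2* carry complex I names but were placed with complex IV, where the *Ndufa4* protein is found.

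Expression was compared between 3 preparations of mammary epithelial cells in primary culture (MEC) and 3 tumor cell lines (MEKO), both from mice on the C57BL6/J background that carry the Wap-Cre transgene. Wap-Cre is active in luminal cells of the mammary gland during pregnancy and lactation. The MEC were Wap-Cre+ controls, prepared from virgin females 10 to 12 weeks old with 3 to 5 animals combined per preparation, and grown on collagen I. MEKO lines 199, 233 and 336 came from mammary tumors of Wap-Cre+ mice that had been bred and were homozygous for floxed alleles of both JNK genes (*Mapk8* LoxP/LoxP and *Mapk9* LoxP/LoxP). They were passed 2 times on collagen I and then grown on standard dishes. *Mapk8* and *Mapk9* encode the JNK protein kinases. Each line is 1 tumor and 1 library. JNK genotype, tumor origin, parity, animal age, pooling of animals, culture surface and time in culture change together between the groups. Their effects cannot be told apart. The values are FPKM, a level corrected for transcript length and library size, as computed by the authors from fragments mapped to each gene. It is relative to all other RNA of the library, so more mitochondria per cell and more of these mRNAs per mitochondrion cannot be told apart.

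Complexes I and II pass electrons from NADH and succinate to coenzyme Q, complex III passes them on to cytochrome c, and complex IV hands them to oxygen. Complexes I, III and IV pump protons out of the mitochondrial matrix, and ATP synthase, also called complex V, uses their return to make ATP. A few subunits are encoded by mitochondrial DNA and the rest, which include every gene chosen here, by the nucleus. Some nuclear subunits exist as a general isoform and a second isoform that is restricted to muscle, testis, lung or cells short of oxygen.

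Expression of the deleted genes was checked first. *Mapk8* was at 23.1, 25.1 and 19.2 FPKM in the MEC libraries and at 5.93, 3.12 and 1.37 FPKM in lines 199, 233 and 336, and *Mapk9* fell from between 21.5 and 24.4 FPKM to between 3.07 and 7.62 FPKM. Markers of luminal epithelium summed to 5347 to 8913 FPKM in MEC and 790 to 2133 FPKM in MEKO cells, and 4 of 6 fell. Basal markers summed to 1282 to 2242 FPKM in MEC, 1865 FPKM in line 199 and 9.92 and 45.1 FPKM in lines 233 and 336. Fibroblast markers were at 95.7 to 179 FPKM in MEC and at 1081, 2.38 and 1.82 FPKM in lines 199, 233 and 336. Line 199 thus stood apart from the other two in basal and fibroblast markers, and results that rest on it are given line by line. Leukocyte markers summed to 21.7 to 41.8 FPKM in MEC and 0.946 to 24.9 FPKM in MEKO cells, endothelial markers to 2.45 to 22.5 FPKM and 0.209 to 2.06 FPKM, with line 336 the highest of the lines in both. The part of these cells in the results below was not tested.

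The respiratory chain and ATP synthase genes as a group were a little higher in MEKO cells than in MEC, and all 3 lines shared this. The summed FPKM of all 92 genes was 10420, 10199 and 10205 in the MEC libraries and 11222, 12672 and 13451 in lines 199, 233 and 336. Each line was above every MEC library, line 199 the least and line 336 the most, and the MEKO mean was 21.2% above the MEC mean. These genes made up 1.63% to 1.80% of the summed FPKM of a MEC library and 2.01% to 2.41% of that of a MEKO line. Both sums are descriptions of abundant genes, since the subunits with the highest levels make up most of them.

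Gene by gene, the difference was small. Of the 92 genes, 85 reached a mean of 1 FPKM over the 6 libraries and were tested with limma among 12461 genes on log2(FPKM + 1). A gene was called changed with a Benjamini-Hochberg adjusted p under 0.05 and a log2 fold change beyond 0.75 in either direction. None of the 85 was called higher, where 2.64% of all tested genes were, and 1, *Cox6b2*, was called lower, where 7.26% of all tested genes were. Without the correction for the number of genes tested, 23 had a p under 0.05 with higher and 3 with lower expression in MEKO cells. Among all 12461 tested genes these counts were 1548 and 1961. The median log2 fold change of the 85 genes was 0.25, which is a 1.19-fold difference, against 0.01 for all tested genes. Values above 0 were found for 68 and below 0 for 17. With sample weights in limma, 12 of the 85 had an adjusted p under 0.05, but *Cox6b2* was again the one past the fold limit. Without weights, 1 of the 85 and 1307 of all 12461 tested genes had such a p, and calls over all tested genes also rose with weights.

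In 41 of the 85, or 48.2%, every MEKO line was above every MEC library. This separation was found for 18.5% of all tested genes. The reverse, every MEKO line below every MEC library, was found in 4 of the 85, against 18.7% of all tested genes, and those 4 were *Cox6b2*, *Cox7a1*, *Ndufaf3* and *Sdhb*. The libraries were similar to each other for these genes. The median SD of log2(FPKM + 1) over the 85 was 0.09 among the MEC preparations and 0.19 among the MEKO lines, where the medians over all tested genes were 0.18 and 0.33. The 95% interval of the log2 fold change lay within 0.75 of 0 for 51 of the 85, reached a rise of 0.75 for 29 and a fall of 0.75 for 5. One of these 5 was *Cox6b2*, whose interval lay wholly beyond the fold limit. For the 51, a change of the size needed for a call was outside the interval.

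**Figure D1:**
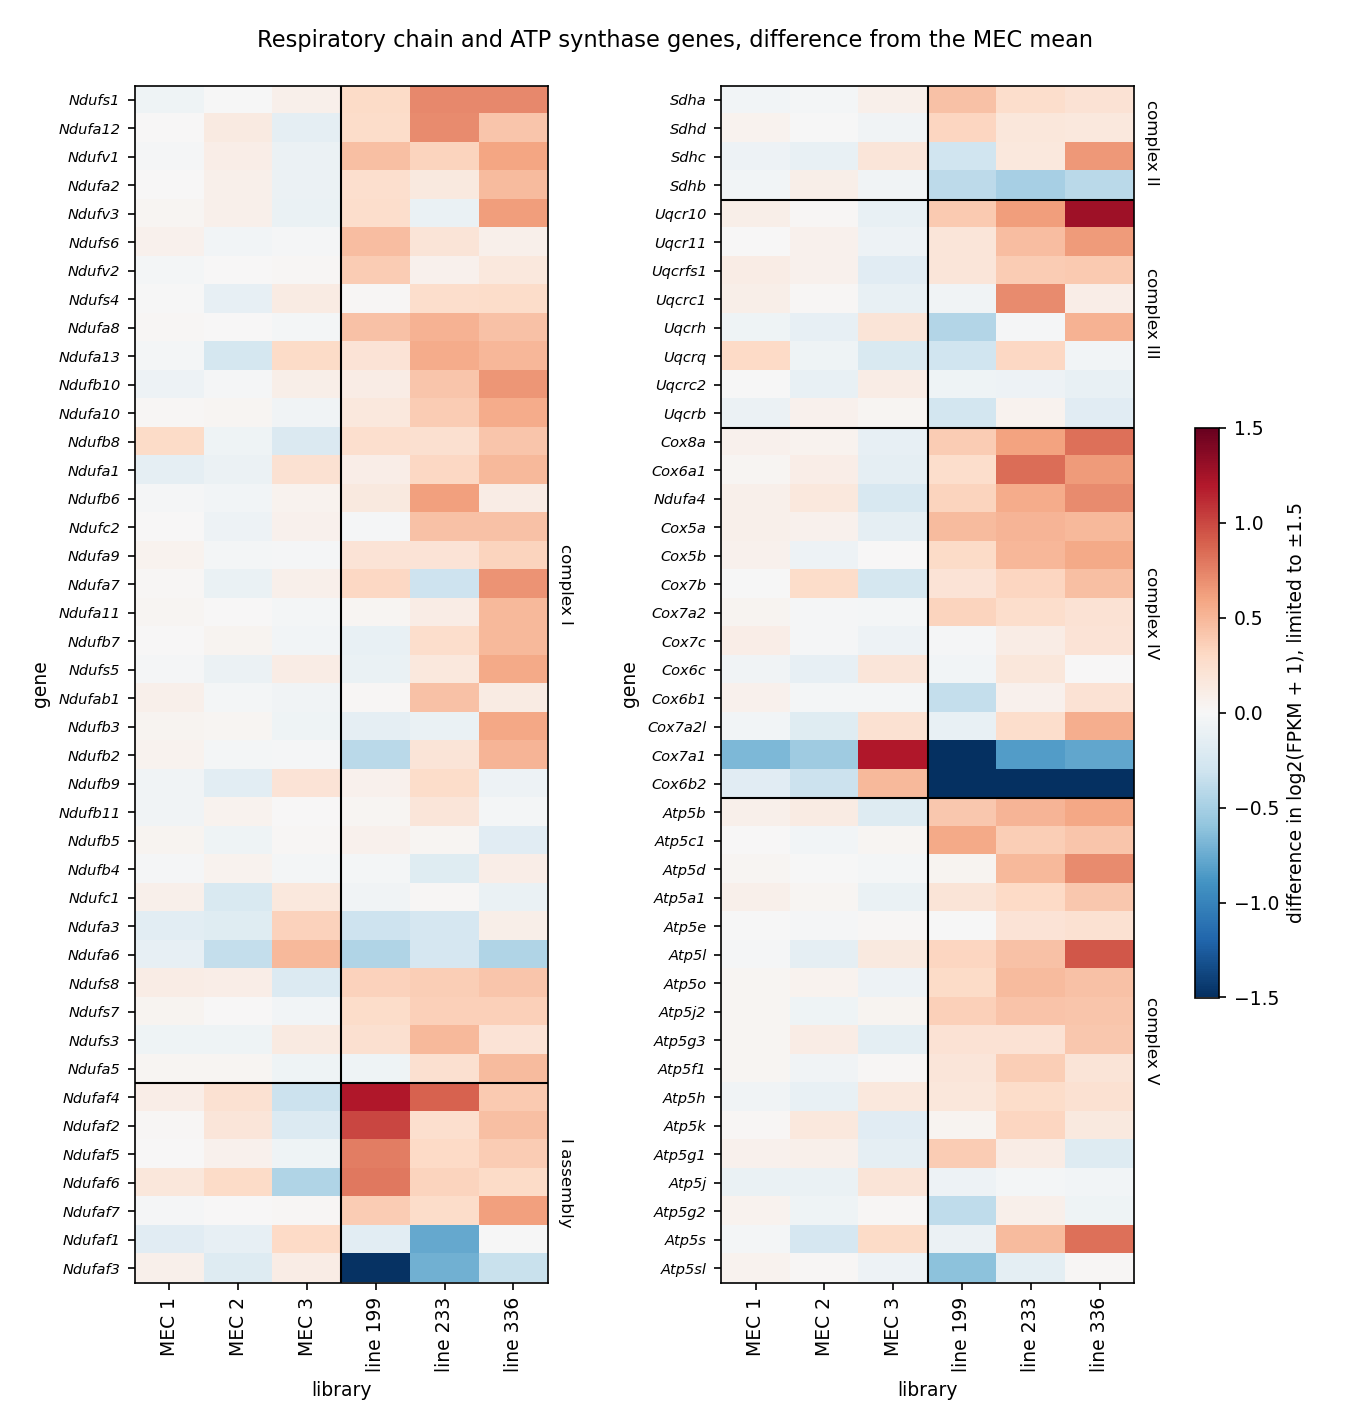
Difference in log2(FPKM + 1) from the MEC mean for 84 of the 85 tested genes (rows, grouped by complex) in the 3 MEC preparations and lines 199, 233 and 336 (columns), with red above and blue below the MEC mean and the colors limited to 1.5 in either direction. Most rows are pale red in the MEKO columns, *Cox6b2* is deep blue in all 3 lines, and the assembly factors are the rows where line 199 reaches deep red.

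The lines differed in how far they stood above MEC. The median difference from the MEC mean over the 85 genes, on the log2(FPKM + 1) scale, reached 0.16 for line 199, 0.27 for line 233 and 0.40 for line 336. Line 336 had the highest level of the 3 lines for 46 genes, line 233 for 24 and line 199 for 15. With 1 library per line, these are values without a test.

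In line 199, 45 of the 85 were above all 3 MEC libraries and 19 below, where 40.2% and 39.1% of all tested genes were. In line 233, 63 were above and 11 below, with 37.4% and 37.9% of all tested genes. In line 336, 65 were above and 9 below, with 39.2% and 37.4% of all tested genes. All 3 lines thus had more of these genes above than below the MEC range, line 199 with the narrowest margin.

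Differences beyond 0.75 were few. Line 199 had 4 genes that far above the MEC mean (background 13%), all of them assembly factors (*Ndufaf4*, *Ndufaf2*, *Ndufaf6* and *Ndufaf5*), and 3 that far below it (background 17.4%), *Cox6b2*, *Cox7a1* and *Ndufaf3*. Line 233 had 2 above (background 10%), *Ndufaf4* and *Cox6a1*, and 3 below (background 18%), *Cox6b2*, *Cox7a1* and *Ndufaf1*. Line 336 had 5 above (background 11.4%), among them *Uqcr10*, *Atp5l* and *Cox8a*, and 2 below (background 18.7%), *Cox6b2* and *Cox7a1*. No gene was past the fold above MEC in all 3 lines, and the 2 that were so below it are both restricted isoforms of complex IV.

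Complex I, the NADH dehydrogenase, had no gene that passed the test in either direction. Its 36 subunits summed to 2723, 2633 and 2868 FPKM in MEC and to 2937, 3184 and 3478 FPKM in lines 199, 233 and 336. Every line was above every MEC library, and the means differed by 16.7%. The median log2 fold change was 0.24, with 31 of 36 above 0. In 15 of 36, or 41.7%, all MEKO lines were above all MEC libraries, against 18.5% of all tested genes.

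By its parts, the module that binds and oxidizes NADH had 8 of 8 subunits above 0, with a median of 0.28, and groups that did not overlap in 6. The module that reduces coenzyme Q had 5 of 5 above 0, with a median of 0.31. The remaining subunits, most of them in the membrane arm, had 18 of 23 above 0 with a median of 0.21. Their groups were separated in 6 of 23, or 26.1%, against 18.5% of all tested genes. These are counts within one enzyme, and the difference between its parts was not tested.

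*Ndufs1*, the large iron-sulfur subunit of the NADH module, had the largest log2 fold change of complex I. It was at 26.7, 27.8 and 29.6 FPKM in MEC and at 34.4, 46.7 and 46.8 FPKM in lines 199, 233 and 336. All 3 lines were above MEC, lines 233 and 336 at nearly the same level, and the log2 fold change was 0.58 ± 0.17 (SE, limma adjusted p = 0.0838). *Ndufa8*, an accessory subunit that faces the intermembrane space, had the smallest adjusted p of complex I. Its levels were 67.4, 66.6 and 65.3 FPKM in MEC and 90.6, 95.9 and 90.2 FPKM in the lines. Neither group varied much, and the log2 fold change of 0.47 ± 0.12 (limma adjusted p = 0.0568) was under the fold limit as well.

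The groups overlapped for other subunits. *Ndufa7*, the accessory subunit with the highest mean FPKM of complex I, was at 172, 159 and 179 FPKM in MEC and at 211, 136 and 272 FPKM in lines 199, 233 and 336, so that line 233 was below MEC and the other lines above it. *Ndufa6*, which holds the mitochondrial acyl carrier protein to complex I, was at 114, 97.1 and 175 FPKM in MEC and 90.8, 105 and 91.1 FPKM in the lines. MEC 3 was the highest library by far, and the lines lay close together. *Ndufb5*, a membrane arm subunit, was the closest to no difference, at 67.7, 62.9 and 66.7 FPKM in MEC and 68.9, 67.2 and 58.2 FPKM in the lines, with a 95% interval of the log2 fold change from -0.34 to 0.30.

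The 7 Ndufaf genes, whose products build complex I and are not part of the finished enzyme, spread more widely than the subunits. They were expressed at low levels, with means in MEC of 6.15 to 24.4 FPKM against a median of 70.5 FPKM for the subunits of complex I. In 5 of the 7 (*Ndufaf2*, *Ndufaf4*, *Ndufaf5*, *Ndufaf6* and *Ndufaf7*) every MEKO line was above every MEC library, and in 1, *Ndufaf3*, below. Such separation was found for 18.5% and 18.7% of all tested genes. None passed the test.

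*Ndufaf4*, which acts early in assembly together with *Ndufaf3*, was at 14.3, 15.6 and 10.3 FPKM in MEC and at 31.8, 25.2 and 17.7 FPKM in lines 199, 233 and 336. The lines did not overlap MEC and line 199 was the highest. The log2 fold change was 0.83 ± 0.26, beyond the fold limit, with a limma adjusted p of 0.1001. Its partner *Ndufaf3* was at 13.95, 11.4 and 14.3 FPKM in MEC and at 4.05, 7.63 and 10.2 FPKM in the lines. Here the order of the lines was turned round, with line 199 lowest, and the log2 fold change was -0.85 ± 0.31 (limma adjusted p = 0.139). The genes for these partner proteins therefore had differences of like size and opposite sign, neither past the test.

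*Ndufaf2* was at 24.6, 27.7 and 21.0 FPKM in MEC and at 49.8, 29.1 and 33.5 FPKM in the lines, and 65.7% of its annotated exon bases lie under a long noncoding RNA on the other strand, so reads of the pair may be mixed. *Ndufaf6* was at 9.52, 10.4 and 5.85 FPKM in MEC and at 15.3, 10.8 and 10.5 FPKM in the lines. *Ndufaf1*, of the complex that builds the membrane arm, was at 13.3, 13.7 and 18.7 FPKM in MEC and at 13.3, 8.45 and 15.0 FPKM in the lines, with line 233 below all other libraries. Line 199 was the highest library for *Ndufaf2*, *Ndufaf4*, *Ndufaf5* and *Ndufaf6* and the lowest for *Ndufaf3*, and the median difference of the 7 genes from MEC was 0.77 for line 199, against 0.28 for line 233 and 0.38 for line 336.

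Complex II, succinate dehydrogenase, is also an enzyme of the citric acid cycle, and its 4 subunits did not move together. *Sdhb*, the iron-sulfur subunit, was at 63.6, 69.3 and 63.0 FPKM in MEC and at 49.4, 46.0 and 49.0 FPKM in the lines. It was lower in all 3 lines, which lay close to one another, with a log2 fold change of -0.43 ± 0.12 (95% interval -0.73 to -0.13, limma adjusted p = 0.0802). It was the one core subunit of the 5 complexes with every MEKO line below every MEC library, and the median of the genes around it on chromosome 4 was also below MEC in all 3 lines (their values are given with those of the other chromosomes).

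*Sdha*, the flavoprotein that takes electrons from succinate and binds *Sdhb*, was at 83.1, 84.1 and 90.3 FPKM in MEC and at 117, 104 and 100 FPKM in lines 199, 233 and 336. It was higher in all 3 lines, with a log2 fold change of 0.31 ± 0.13 (limma adjusted p = 0.181). Of the membrane anchors, *Sdhd* was at 72.8, 70.4 and 68.1 FPKM in MEC and at 88.0, 79.3 and 78.5 FPKM in the lines. *Sdhc* was at 86.9, 84.6 and 104 FPKM in MEC and at 73.9, 102 and 143 FPKM in the lines. *Sdhd* was higher in all 3 lines, while *Sdhc* was lowest in line 199, highest in line 336 and within the MEC range in line 233. The summed level of the complex was 306 to 325 FPKM in MEC and 328 to 371 FPKM in MEKO cells.

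Complex III, the cytochrome bc1 complex, was the complex where the groups overlapped in summed level. Its 8 genes summed to 1350, 1268 and 1256 FPKM in MEC and to 1221, 1597 and 1729 FPKM in lines 199, 233 and 336. Line 199 was below all MEC libraries and the other lines above them. The median log2 fold change was 0.14, and in line 199 the median difference from MEC was -0.06.

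*Uqcr10*, one of the smallest subunits of complex III, was at 201, 192 and 175 FPKM in MEC and at 248, 293 and 458 FPKM in the lines. All 3 lines were above MEC and line 336 stood well above the others. Its log2 fold change was 0.77 ± 0.24, the largest of the core subunits and beyond the fold limit, with a limma adjusted p of 0.1001. Without line 199 it was called higher, with a log2 fold change of 0.95 and an adjusted p of 0.0403. *Uqcrq*, the subunit with the highest level in MEC, was at 329, 255 and 228 FPKM in MEC and at 217, 332 and 261 FPKM in the lines. The groups overlapped, with a 95% interval from -0.53 to 0.51.

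The remaining genes of complex III also went in both directions. *Uqcrfs1*, the Rieske iron-sulfur protein, had a log2 fold change of 0.32 and groups that did not overlap. *Uqcrc1* and *Uqcrc2*, the core proteins, had values of 0.25 and -0.08. *Uqcrc1* was at 107, 182 and 119 FPKM in lines 199, 233 and 336 against 103 to 118 FPKM in MEC, so that line 233 stood alone. *Uqcrh*, the hinge protein, ran from 177 FPKM in line 199 to 344 FPKM in line 336, with MEC between them at 219 to 274 FPKM.

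**Figure D2:**
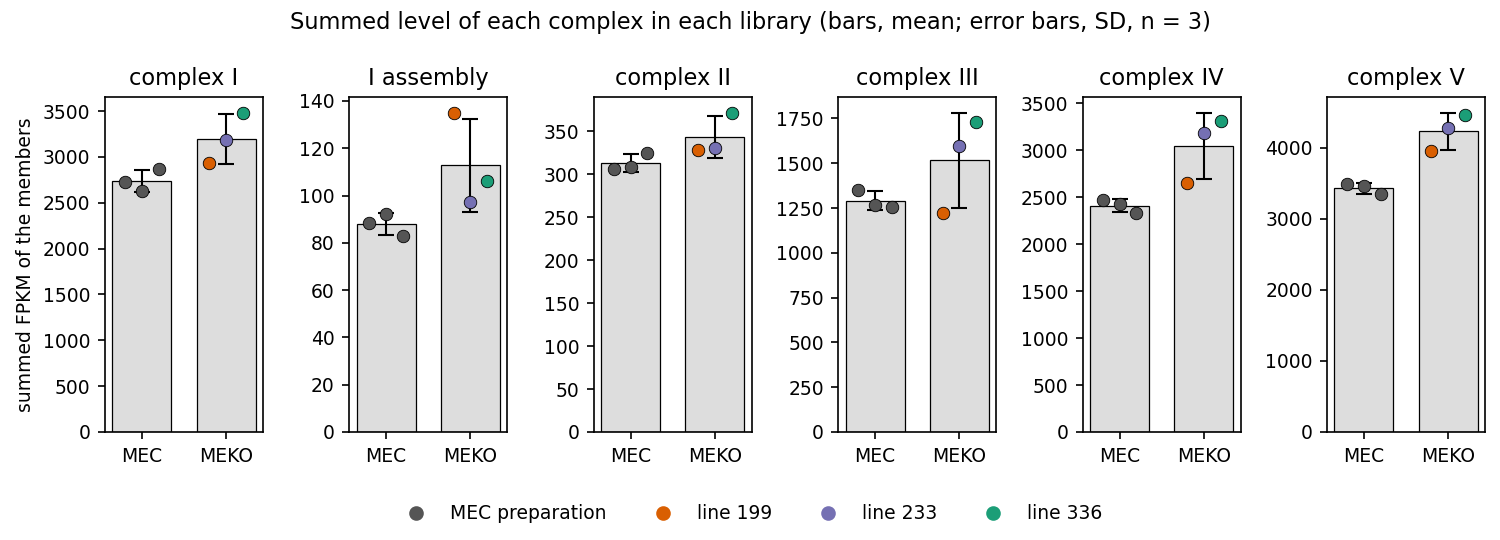
Summed FPKM of the genes of each complex in MEC (gray points) and in lines 199, 233 and 336 (colored points), with bars for the group mean and error bars for the SD (n = 3). The groups are apart for complexes I, II, IV and V and for the assembly factors, and line 199 lies under the MEC points for complex III and on top for the assembly factors.

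Complex IV, cytochrome c oxidase, had the largest relative difference in summed level among the 5 complexes, though not the largest in FPKM, which was that of complex V. It went from 2468, 2429 and 2331 FPKM in MEC to 2649, 3183 and 3308 FPKM in lines 199, 233 and 336. The groups did not overlap and the means differed by 26.5%. The 10 general subunits had a median log2 fold change of 0.39, with 9 of 10 above 0, and none passed the test. In 6 of 10 the lines were all above MEC, against 18.5% of all tested genes.

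*Cox5a*, which lies on the matrix side, was at 127, 126 and 110 FPKM in MEC and at 169, 173 and 169 FPKM in the lines. Its 3 lines were almost level, and the log2 fold change was 0.49 ± 0.13 (limma adjusted p = 0.0592). *Cox8a*, the general isoform of the smallest subunit, was at 327, 323 and 286 FPKM in MEC and at 406, 472 and 553 FPKM in the lines, a log2 fold change of 0.60 ± 0.16 (limma adjusted p = 0.0629). Line 336 was highest and line 199 lowest of the lines, and all were above MEC. *Ndufa4*, which had the highest mean level of the complex, was at 348, 370 and 281 FPKM in MEC and at 416, 485 and 542 FPKM in the lines, with a log2 fold change of 0.53 ± 0.17 (limma adjusted p = 0.107). *Cox6a1* was at 297, 310 and 265 FPKM in MEC and at 347, 520 and 452 FPKM in the lines, with line 233 the highest.

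Not all general subunits were higher. *Cox6b1*, which joins the monomers of the enzyme on the intermembrane side, was at 340, 319 and 318 FPKM in MEC and at 254, 341 and 380 FPKM in the lines. Line 199 was below MEC, the other lines above it, and the log2 fold change was -0.02 ± 0.18. *Cox7a2* was at 105, 101 and 101 FPKM in MEC and at 129, 123 and 119 FPKM in the lines, a narrow but complete separation, while *Cox7a2l*, which helps to join complexes III and IV, was at 122, 110 and 147 FPKM in MEC and 116, 151 and 184 FPKM in the lines, and overlapped.

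*Cox6b2*, the isoform of *Cox6b1* known from testis, was the one gene of the 85 that was called. It was at 5.36, 4.70 and 9.01 FPKM in MEC and at 0.158, 0 and 0.0734 FPKM in lines 199, 233 and 336. MEC expressed it at a low level in all 3 preparations and the lines hardly at all, with line 233 listed at 0. The log2 fold change on the log2(FPKM + 1) scale was -2.73 ± 0.28 (95% interval -3.40 to -2.06, limma adjusted p = 0.00382), a scale that understates the change of a gene this low. It was called lower in every refit that kept it, with adjusted p from 0.00172 to 0.0307, and it was not tested where a mean of 5 FPKM was required. Of the summed FPKM of *Cox6b1* and *Cox6b2*, *Cox6b2* made up 1.92% ± 0.72 (SD, n = 3) in MEC and 0.03% ± 0.03 in MEKO cells, so that *Cox6b1* supplied nearly all of it in both groups. An exact permutation test over the 6 libraries gave p = 0.1 (two-sided), the smallest that 3 against 3 allow.

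The bases before the start of both Cox6b genes are shown because *Cox6b2* was called lower while *Cox6b1*, with overlapping groups and a log2 fold change of -0.02, was not. Whether these letters bear on the levels was not tested. The sequences are from RefSeq on GRCm38.p6, 5′ to 3′ on the strand of the gene, and give the 150 bases that end just before the annotated start. *Cox6b2* is at chr7:4753095-4753244 on the minus strand and *Cox6b1* at chr7:30626115-30626264, also on the minus strand. Capitals mark the core CCGGAAG, the motif of ETS factors such as GABPA, read on either strand.
*Cox6b2*: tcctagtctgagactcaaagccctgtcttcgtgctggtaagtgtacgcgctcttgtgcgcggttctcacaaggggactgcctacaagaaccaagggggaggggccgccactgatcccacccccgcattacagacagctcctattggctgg
*Cox6b1*: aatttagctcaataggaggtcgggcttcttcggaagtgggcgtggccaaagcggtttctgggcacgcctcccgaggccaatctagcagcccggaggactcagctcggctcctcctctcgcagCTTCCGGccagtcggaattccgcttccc
No ETS core, nor the NRF1 core GCATGCGC, is among the letters of the *Cox6b2* window. *Cox6b1* holds 1 ETS core, in reverse orientation, close to its start.

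The other restricted isoforms were low or absent in both groups. *Cox7a1*, the isoform of heart and skeletal muscle, was at 2.01, 2.32 and 10.0 FPKM in MEC and at 0.644, 1.68 and 1.79 FPKM in the lines. The lines were below MEC, but MEC 3 alone was far above the other preparations, and the log2 fold change of -1.05 ± 0.54 did not pass the test (limma adjusted p = 0.258). Markers of skeletal muscle summed to 4.37 to 5.51 FPKM in MEC and 0.909 to 3.99 FPKM in MEKO cells, and *Ckm*, *Myl1*, *Tnnt3* and *Myh4* were under 1 FPKM in every library. Adipocyte markers summed to 1.52 to 11.8 FPKM in MEC and 0.0898 to 1.19 FPKM in MEKO cells, and 5 of 6 (*Adipoq*, *Plin1*, *Cidec*, *Lep* and *Ucp1*, but not *Fabp4*) were under 1 FPKM in every library. MEC 3, the highest library for *Cox7a1*, had the lowest adipocyte sum of the MEC preparations and the highest skeletal muscle and leukocyte sums. Skeletal muscle markers summed to 4.98, 4.37 and 5.51 FPKM in MEC 1, MEC 2 and MEC 3. The part of any of these cells in the values of *Cox7a1* was not tested.

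A further 7 genes did not reach the filter and were not tested. *Cox4i1*, the general isoform, was not analysed here and is in no sum or count of complex IV. Its relative *Cox4i2*, the isoform of lung, was at 0.468, 0.773 and 0.519 FPKM in MEC and listed at 0 in all 3 lines. *Ndufa4l2*, known as a target of hypoxia, was at 2.16, 2.23 and 0.751 FPKM in MEC and at 0.473, 0.0310 and 0 FPKM in lines 199, 233 and 336. Both were below MEC in all lines, at levels where FPKM is least precise. *Cox6a2*, of heart and muscle, reached 2.31 FPKM in line 199 and was under 0.4 FPKM elsewhere. *Atp5l2* was under 0.5 FPKM in all libraries, and *Cox7b2*, *Cox8b* and *Cox8c* were listed at 0 in all 6. *Cox6a1* made up 99.3% or more of its pair in every library and *Ndufa4* 99.4% or more of its own. The largest share of a restricted isoform was that of *Cox7a1* in MEC 3, at 9.06% of the summed FPKM of *Cox7a1* and *Cox7a2*.

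**Figure D3:**
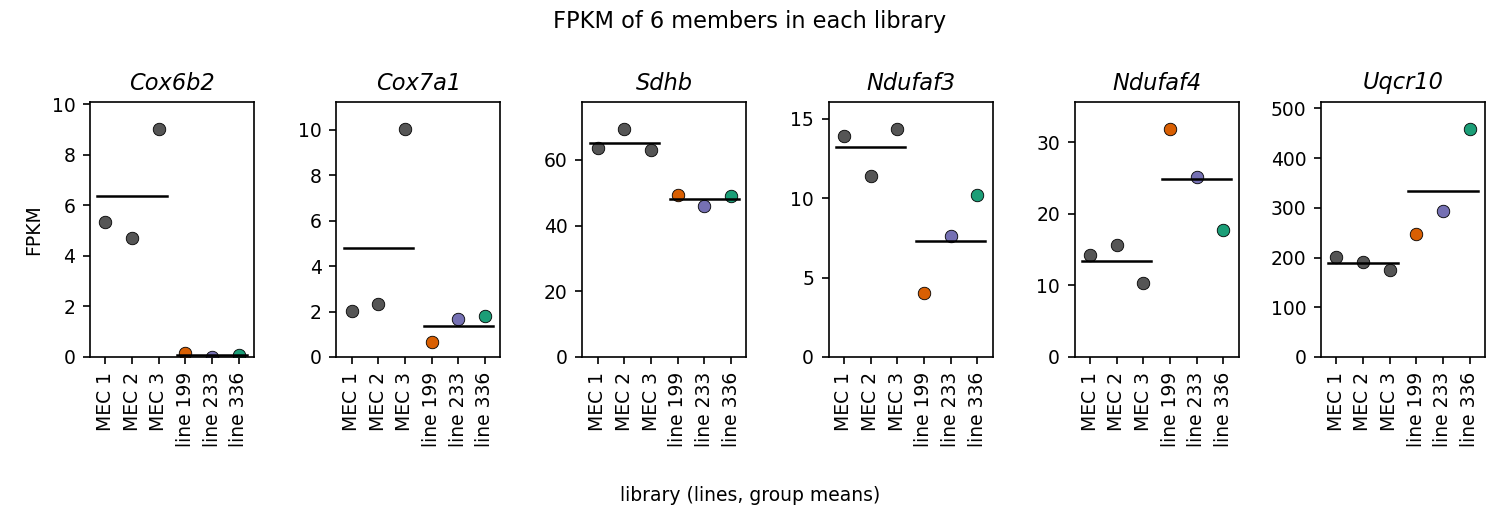
FPKM of 6 genes in the MEC preparations (gray) and in lines 199, 233 and 336 (colored), each panel with its own axis from 0 and black lines at the group means. *Cox6b2* is near 0 in the lines, one MEC preparation sets the MEC mean of *Cox7a1*, *Sdhb* is evenly lower in the 3 lines, *Ndufaf3* and *Ndufaf4* are spread in opposite orders, and line 336 is the highest library for *Uqcr10*.

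ATP synthase, complex V, summed to 3484, 3467 and 3343 FPKM in MEC and to 3953, 4281 and 4457 FPKM in lines 199, 233 and 336. The groups did not overlap and the means differed by 23.3%. The median log2 fold change of the 17 tested genes was 0.28, with 14 above 0. In 10, or 58.8%, all lines were above all MEC libraries, against 18.5% of all tested genes. None passed the test.

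The catalytic F1 head had 5 of 5 subunits above 0 and a median log2 fold change of 0.41. *Atp5b*, the catalytic beta subunit, had the highest level of all 92 genes, at 727, 748 and 602 FPKM in MEC and 910, 979 and 1031 FPKM in the lines. Each line was above each MEC library, and the log2 fold change was 0.49 ± 0.14 (limma adjusted p = 0.083). *Atp5c1*, the rotating gamma subunit, was at 167, 162 and 169 FPKM in MEC and at 246, 215 and 222 FPKM in the lines, a log2 fold change of 0.45 ± 0.12 (limma adjusted p = 0.0675). Line 199 was the highest of the lines for *Atp5c1* and the lowest for *Atp5b*. *Atp5d*, the delta subunit, was at 182 FPKM in line 199, just above MEC at 174 to 181 FPKM, and at 248 and 289 FPKM in lines 233 and 336.

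In the membrane part and the stalks, 8 of 10 genes were above 0, with a median of 0.24. *Atp5l*, subunit g, was at 160, 148 and 179 FPKM in MEC and at 203, 219 and 310 FPKM in the lines, with line 336 above the rest and a log2 fold change of 0.56 ± 0.20 (limma adjusted p = 0.125). It has 9 near-identical copies elsewhere in the annotation, and the authors' counting could have split its reads among them. *Atp5j*, the coupling factor F6, was the gene of complex V closest to no difference, at 248, 250 and 306 FPKM in MEC and 253, 261 and 258 FPKM in the lines (95% interval -0.38 to 0.28). *Atp5s* was at 4.004, 3.29 and 5.23 FPKM in MEC and 3.80, 6.09 and 8.07 FPKM in the lines, and *Atp5sl* at 11.0, 10.7 and 9.94 FPKM in MEC and 6.51, 9.46 and 10.7 FPKM in the lines. The last 2 carry the family name but are not part of the core enzyme.

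The 3 Atp5g genes encode the same mature c subunit, which forms the rotor ring, behind different import sequences. *Atp5g3* was at 342, 360 and 302 FPKM in MEC and 388, 387 and 442 FPKM in the lines, and did not overlap. *Atp5g2* was at 231, 215 and 226 FPKM in MEC and 172, 236 and 214 FPKM in the lines, and *Atp5g1* at 116, 117 and 101 FPKM in MEC and 145, 120 and 97.1 FPKM in the lines. Both of these overlapped, with line 199 at the low end for *Atp5g2* and at the high end for *Atp5g1*. As shares of the 3 genes' summed FPKM, *Atp5g3* went from 49.9% ± 2.0 (SD, n = 3) in MEC to 55.2% ± 3.3 in MEKO cells, *Atp5g2* from 33.5% ± 2.4 to 28.2% ± 3.7, and *Atp5g1* was at 16.6% in both groups. In exact permutation tests over the libraries (two-sided) *Atp5g3* gave p = 0.1, *Atp5g2* p = 0.2 and *Atp5g1* p = 1.

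**Figure D4:**
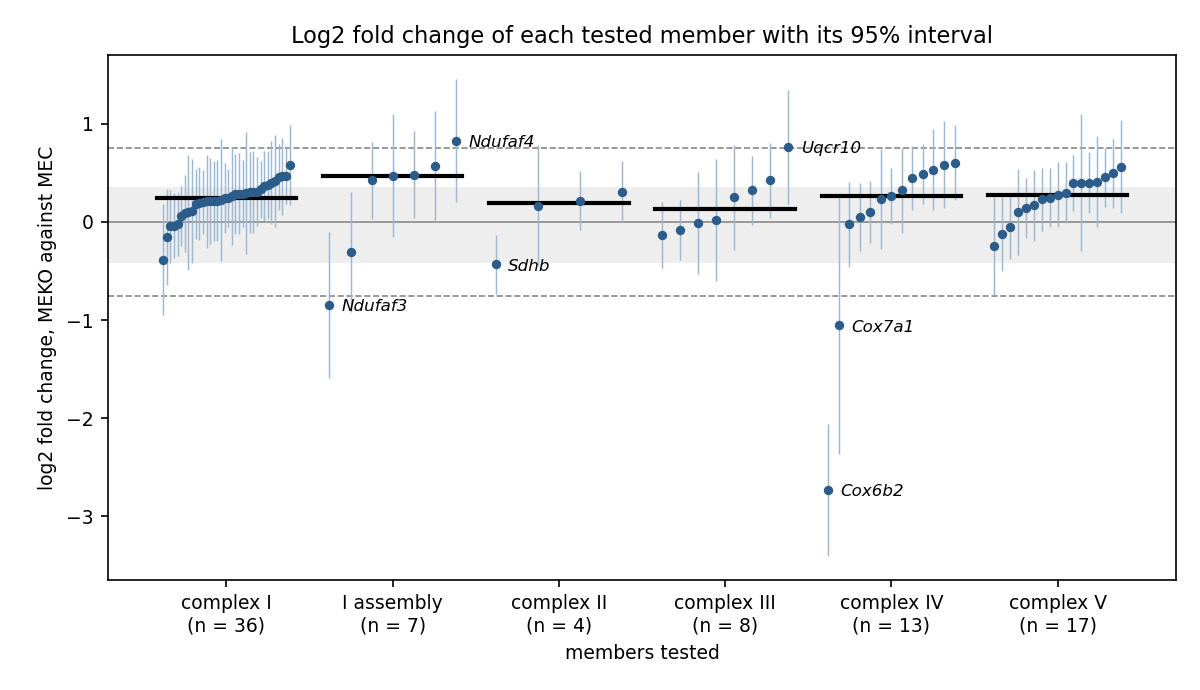
Log2 fold change (MEKO against MEC, on log2(FPKM + 1)) of the 85 tested genes by complex, with 95% intervals, black bars at the median of each complex, a gray band for the middle range (from the first to the third quartile) of all 12461 tested genes, and dashed lines at 0.75 in either direction. The medians lie between 0.14 and 0.47, and *Cox6b2* is the lowest point.

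Small nuclear genes of this kind often have processed pseudogenes, whose reads may be exchanged with theirs. Of the 85 tested genes, 21 have a copy elsewhere in the annotation with at least 95% identity over at least 200 bases. Their median log2 fold change was 0.23, with 9 of 21 fully separated upward. That of the 64 without such a copy was 0.28, with 32 of 64, where 18.5% of all tested genes were so separated. The part of read exchange in these values was not tested. Exons of 31 of the 92 overlap those of another gene, by 20% or more of their bases in 3 (*Ndufaf2*, *Ndufb6* and *Ndufa13*, each on the opposite strand). Another 3 of the 92, *Atp5o*, *Ndufb8* and *Ndufb2*, stand in the table as 1 entry joined with neighboring genes, so their values belong to the joined entry.

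The 85 tested genes lie on all chromosomes but 14 and Y, and tumor lines can gain or lose parts of chromosomes. Each gene was therefore set beside the median of the other tested genes within 5 Mb. Across the 85 genes, the difference from MEC and that of the neighbors had a Pearson r of 0.41 in line 199, 0.22 in line 233 and 0.33 in line 336 (Spearman rho 0.49, 0.25 and 0.53). These correlations are across genes of one library, which share its depth and scaling and in part their neighbors, and are given as a description.

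The chosen genes were above their neighbors in 54, 72 and 74 of 85 cases in lines 199, 233 and 336. The median excess was 0.08, 0.23 and 0.25. In line 199 the neighbors' median was itself 0.08, so the excess was about as large as the shift of the neighborhood. The neighbors' median was also 0.08 in line 336, under its excess of 0.25, and was 0 in line 233. By chromosome, the median of the genes described here was set beside that of the other tested genes. It was higher in lines 199, 233 and 336 on 14, 17 and 19 of the 19 chromosomes that hold any. On chromosome 4 the other tested genes had a median of -0.32, -0.35 and -0.25 in lines 199, 233 and 336. The 6 genes described here (*Ndufaf4*, *Ndufaf6*, *Ndufb6*, *Ndufs5*, *Sdhb* and *Uqcrh*) had a median of 0.02, 0.24 and 0.34. Chromosome 7, which holds the most of them (8, with *Cox6b2* and *Cox7a1* among them), went the other way in 2 lines. Its other tested genes had a median of -0.16, -0.07 and -0.04, and the 8 had -0.33, -0.11 and 0.05. Chromosome 16 went that way in the same lines. Its 3 genes had -0.03, -0.03 and 0.10, and its other tested genes 0.11, 0.04 and 0.07. *Sdhb* lies among genes whose median was further below MEC. The 90 other tested genes around it had a median of -0.63, -0.91 and -0.70 in lines 199, 233 and 336, against -0.39, -0.49 and -0.41 for *Sdhb* itself. Copy number was not analysed here, and its part in these values was not tested.

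Nuclear respiratory factor 1 (NRF1) and the ETS factor GABP bind the promoters of many respiratory chain genes. Promoters of 73 of the 92 genes and of 27025 genes in all were matched in RefSeq (GRCm38.p6), each with 250 bases before and 50 after the start, and searched on both strands. The NRF1 core GCATGCGC was found in 12 of 73 (16.4%) and in 3.05% of all promoters, and the core preceded by GC in 7 (9.59%) and 1.07%. The ETS core CCGGAAG was found in 17 (23.3%) against 9.93% of all. The YY1 motif AAGATGGC was found in 9 (12.3%) against 3.19%, the ERR motif TCAAGGTCA in 2 (2.74%) against 0.466%, and the E-box CACGTG in 5 (6.85%) against 8.09%. A promoter can hold several of these, and the NRF1 core preceded by GC is a palindrome that holds the core on both strands. A match is a run of letters and does not show that a factor binds there.

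The 12 tested genes with the NRF1 core had a median log2 fold change of 0.34 and the 59 without it 0.26. For the core preceded by GC, the 7 with it had 0.25 and the 64 without it 0.26. The 17 with the ETS core had 0.21 and the 54 without it 0.27. The promoters of *Ndufaf4*, *Ndufa8* and *Sdhb* are shown as 3 holders of the NRF1 core, 2 of which were higher and 1 lower in all 3 lines, a choice made after their values were seen. They are at chr4:24897933-24898082 (plus strand), chr2:36049339-36049488 (minus strand) and chr4:140961121-140961270 (plus strand). Capitals mark the core, which in *Ndufaf4* is preceded by GC and so reads the same on both strands.
*Ndufaf4*: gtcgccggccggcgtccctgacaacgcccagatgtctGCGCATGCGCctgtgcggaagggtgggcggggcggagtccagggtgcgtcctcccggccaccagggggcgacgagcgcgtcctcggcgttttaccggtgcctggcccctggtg
*Ndufa8*: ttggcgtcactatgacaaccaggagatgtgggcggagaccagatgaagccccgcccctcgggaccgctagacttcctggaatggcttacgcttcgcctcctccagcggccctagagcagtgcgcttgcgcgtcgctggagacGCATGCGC
*Sdhb*: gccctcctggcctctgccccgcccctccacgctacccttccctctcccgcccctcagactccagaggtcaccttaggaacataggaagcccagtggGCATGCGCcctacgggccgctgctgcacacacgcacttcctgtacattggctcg
In *Ndufa8* the core ends at the base before the start. Their log2 fold changes were 0.83 for *Ndufaf4*, 0.47 for *Ndufa8* and -0.43 for *Sdhb*. As the 3 were chosen by these values, finding both directions beside the core follows from the choice. Whether the core plays a part in the values was not tested.

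Other genes of oxidative metabolism were counted from lists written from general knowledge. A list of 15 further nuclear subunits, electron carriers and related proteins had 8 values above 0 and 7 below, with a median log2 fold change of 0.02. In 3 of them every line was above every MEC library and in 5 below, against 18.5% and 18.7% of all tested genes. Of the 15, 1 fell and none rose, where 7.26% of all tested genes fell and 2.64% rose. The one that fell was *Atpif1*, the inhibitor that stops ATP synthase from running in reverse. It was at 299, 292 and 316 FPKM in MEC and at 151, 152 and 177 FPKM in lines 199, 233 and 336. The lines were all at about the same level, far below MEC, with a log2 fold change of -0.91 ± 0.13 (limma adjusted p = 0.0114), while 14 of the 17 tested genes of ATP synthase itself had values above 0. Without 1 library its adjusted p reached 0.0728. *Etfdh*, which feeds electrons from fatty acid and amino acid oxidation to coenzyme Q, was at 26.2, 34.4 and 34.7 FPKM in MEC and 18.9, 19.5 and 18.4 FPKM in the lines (log2 fold change -0.71, limma adjusted p = 0.0429), short of the fold limit. *Usmg5* of ATP synthase and *Cyc1* of complex III lack the chosen names and are in no sum above. *Usmg5* was at 546, 518 and 584 FPKM in MEC and 672, 656 and 952 FPKM in the lines. Its log2 fold change was 0.45 (limma adjusted p = 0.173), and that of *Cyc1*, with overlapping groups, was 0.20.

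The subunits encoded by mitochondrial DNA are held in 4 entries, and none passed the test. The entry that joins *mt-Nd1* and *mt-Nd2* was at 2061, 1741 and 1915 FPKM in MEC and 2072, 3141 and 3701 FPKM in the lines. *mt-Cytb* was at 2332, 1638 and 2484 FPKM in MEC and 1747, 4089 and 3801 FPKM in the lines, and *mt-Nd6*, the one subunit on the other strand of the mitochondrial genome, at 1405, 1082 and 1753 FPKM in MEC and 900, 1222 and 1177 FPKM in the lines. The entry with the highest level joins *mt-Atp6*, *mt-Atp8*, *mt-Co1*, *mt-Co2*, *mt-Co3*, *mt-Nd3*, *mt-Nd4*, *mt-Nd4l* and *mt-Nd5*. It was at 3279, 2387 and 3572 FPKM in MEC and 2835, 4859 and 5244 FPKM in the lines. Lines 233 and 336 were above MEC for this entry and for *mt-Cytb*, and line 199 was not.

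None of 10 further assembly factors of complexes I and II passed the test (median 0.13), and of 29 for complexes III to V 1 rose (median 0.18), a share near the 2.64% of all tested genes called higher. It was *Lrpprc*, which stabilizes mitochondrial mRNAs, at 15.1, 15.4 and 16.3 FPKM in MEC and 36.7, 28.7 and 28.9 FPKM in the lines (log2 fold change 0.96 ± 0.16, limma adjusted p = 0.0164). All 3 lines were well above MEC.

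The citric acid cycle and pyruvate dehydrogenase, which supply the electrons, had 2 of 27 genes that rose and none that fell, with a median of 0.33. Of all tested genes, 2.64% rose and 7.26% fell. In 14 of the 27 every line was above every MEC library and in 1 below, against 18.5% and 18.7% of all tested genes. *Idh3a*, a subunit of the NAD-dependent isocitrate dehydrogenase, was at 56.8, 56.7 and 43.7 FPKM in MEC and 114, 89.7 and 91.6 FPKM in the lines (log2 fold change 0.90 ± 0.17, limma adjusted p = 0.0274). *Pdhx*, a structural part of the pyruvate dehydrogenase complex, was at 13.2, 10.0 and 10.1 FPKM in MEC and 20.8, 18.3 and 18.6 FPKM in the lines, with a log2 fold change of 0.75 at the fold limit (limma adjusted p = 0.0402). All 3 lines lay above MEC for both genes. *Idh3b*, *Idh3g* and *Mdh2* passed the adjusted p but not the fold, with log2 fold changes of 0.55, 0.68 and 0.65. None of 13 genes of coenzyme Q synthesis passed the test (median 0.36).

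Regulators of mitochondrial biogenesis had 1 of 18 tested genes higher and 1 lower, counts too small to set apart from the 2.64% and 7.26% of all tested genes. *Esrra*, an orphan nuclear receptor known to drive respiratory chain genes, was at 15.8, 13.3 and 12.7 FPKM in MEC and 21.4, 32.4 and 32.0 FPKM in the lines (log2 fold change 0.97 ± 0.21, limma adjusted p = 0.0357). *Nrip1*, a corepressor of nuclear receptors that include *Esrra*, was at 22.6, 22.2 and 24.0 FPKM in MEC and 8.05, 6.38 and 4.96 FPKM in the lines (log2 fold change -1.70 ± 0.19, limma adjusted p = 0.00498). The receptor rose and the corepressor fell in all 3 lines. The coactivator *Ppargc1a* was at 0.371, 0.231 and 1.65 FPKM in MEC and at 0.00675, 0.486 and 0.0843 FPKM in the lines and was not tested, and *Nrf1* and *Gabpa* had log2 fold changes of 0.33 and 0.43 that did not pass.

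Among 22 genes of mitochondrial import and the mitochondrial membranes, 1 fell and none rose (median 0.36), where 7.26% and 2.64% of all tested genes did. *Ucp2*, a carrier of the inner membrane, was at 313, 293 and 357 FPKM in MEC and at 1.79, 2.72 and 9.43 FPKM in the lines, a log2 fold change of -6.07 ± 0.48 (limma adjusted p = 0.00175). Its level in every line was a small share of that in MEC. *Slc25a4*, the ADP and ATP carrier, was at 113, 115 and 104 FPKM in MEC and 165, 165 and 196 FPKM in the lines, with an adjusted p of 0.0338 but a log2 fold change of 0.65, under the fold limit. Of the 7 called genes of these lists, *Nrip1* and *Ucp2* kept an adjusted p under 0.05 with any 1 library left out (largest 0.0423 and 0.0188), while those of *Atpif1*, *Lrpprc*, *Idh3a*, *Pdhx* and *Esrra* rose to between 0.0728 and 0.158.

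**Figure D5:**
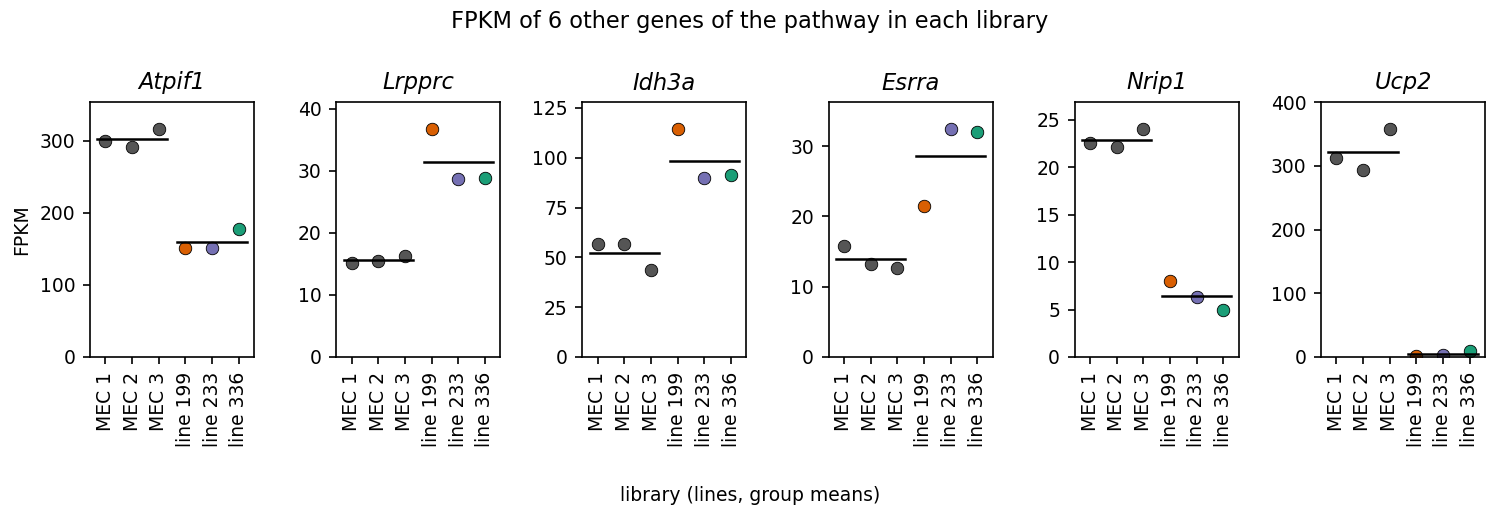
FPKM of 6 genes outside the chosen families in the MEC preparations (gray) and in lines 199, 233 and 336 (colored), each panel with its own axis from 0 and black lines at the group means. *Lrpprc*, *Idh3a* and *Esrra* are higher and *Atpif1*, *Nrip1* and *Ucp2* lower in every line.

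Other large groups of genes were set beside the respiratory chain and ATP synthase genes. Mitochondrial ribosomal proteins had a median log2 fold change of 0.27 over 70 tested genes, close to the 0.25 of the respiratory chain and ATP synthase genes, with 30 separated upward and 6 downward. Cytosolic ribosomal proteins had a median of 0.08 over 80, with 12 and 6. Upward separation was thus found for 42.9% of the mitochondrial and 15% of the cytosolic list. Of all tested genes, 18.5% were separated upward and 18.7% downward. By line the mitochondrial ribosomal proteins had medians of 0.32, 0.22 and 0.18 in lines 199, 233 and 336, the order opposite to that of the respiratory chain and ATP synthase genes, and the difference between the lists was not tested.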

How the data were processed

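RNA-seq libraries of 3 MEC preparations and 3 MEKO tumor cell lines were analysed, grouped by the sample titles and descriptions. The authors removed poor reads with Trimmomatic, mapped the read pairs to genome build mm10 (TopHat2 2.0.14 with Bowtie2) and computed FPKM values with Cufflinks 2.2.1, versions as in the submitters' processing notes. Whether strand was used in the counting is not given in the sources used here. The deposited table had 37755 entries, 2 of them without values. Depth is not known from FPKM, and low values put the relative depth at 0.920 to 1.30 of MEC 1.

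Entries were tested with limma 3.58.1 in R 4.3.3 on log2(FPKM + 1), MEKO against MEC, with a mean-variance trend, after a filter at a mean of 1 FPKM over the 6 libraries. P-values were adjusted over all 12461 tested entries by the Benjamini-Hochberg method, and SE and 95% intervals are those of limma. The script was tested on simulated data. The summed FPKM, shares and differences by line are descriptions. Positions and overlaps came from GENCODE release M21 (GRCm38), copies from blastn 2.17.0 against its transcripts, promoters from RefSeq. Alternatives changed the pseudocount (0.1), filter, scaling, trend, weights and libraries. The genes, lists and tests were chosen with earlier results of these data known. Genes named were those called, the most abundant and least different of each complex, complex II, the isoform pairs, the extremes of each line and those not tested. The other names were chosen after their values were seen, and one gene that the rule names is not reported here.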

Additional observations from a re-analysis of the deposited data

How the results depend on the processing

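The median log2 fold change of the 85 genes stayed between 0.20 and 0.32 under all alternatives tried. *Cox6b2* was called lower under each alternative that tested it, and 0 genes were called lower where a mean of 5 FPKM was required. Leaving out 1 library at a time gave 0 to 1 genes called higher, the one being *Uqcr10* without line 199. By line, the median difference of line 199 was 0.0876 with quantile normalization, 0.10 with upper-quartile scaling, 0.0920 with cyclic loess, 0.20 when scaled to nuclear protein-coding genes, an alternative chosen after seeing the data, and 0.12 to 0.15 with 1 MEC library left out. That of line 233 was 0.33 with quantile normalization and 0.35 with the nuclear scaling. That of line 336 was 0.34 with quantile normalization, 0.33 with upper-quartile scaling, 0.31 with cyclic loess, 0.33 with the adjustment for length and GC content, and 0.33 to 0.42 with 1 MEC library left out. The cause of these differences was not tested.

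In all, 17 of the 85 genes changed sign in at least 1 refit, and all 17 had overlapping groups. The values of those named by the rule follow. With quantile normalization *Atp5j* was at 0.0357, *Cox6b1* at 0.0599 and *Uqcrq* at 0.0461. With sample weights *Atp5g1* was at -0.00101 and *Atp5j* at 0.0489. With the nuclear scaling *Cox6b1* was at 0.00594, *Ndufb5* at 0.00514 and *Uqcrq* at 0.0203. With 1 library left out *Atp5g1* ranged from -0.0388 to 0.25, *Atp5g2* from -0.22 to 0.00427, *Atp5j* from -0.10 to 0.0479, *Cox6b1* from -0.15 to 0.14, *Ndufa7* from -0.00201 to 0.50, *Ndufb5* from -0.0701 to 0.0491, *Sdhc* from -0.0730 to 0.40 and *Uqcrq* from -0.17 to 0.14. The other 68 genes kept their direction in these refits. Without the fold limit, 1 of the 85 genes and 1307 of all 12461 tested genes had an adjusted p under 0.05. Of the 85, 12 did with sample weights, 9 without line 199 and 6 with quantile normalization. Calls over all tested genes rose in total in these refits as well, as given next, so these counts are no measure of the 85 genes alone.

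Over all tested genes, 329 were called higher and 905 lower, and 477 and 783 with quantile normalization, 600 and 1378 with sample weights, 568 and 1398 without line 199, 48 and 211 without MEC 1, 56 and 245 without MEC 2, and 89 and 388 without MEC 3. With a mean of 5 FPKM required, 237 and 501 were called, with fewer genes tested. No paired analysis was possible because the groups share no replicate numbers. FPKM carries no read numbers, so depth was unknown and no counting interval could be given. With 3 libraries per group, the median half-width of the 95% interval was 0.39 on the log2 scale, wider than the median difference of 0.25.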
